A study of Mus musculus with 24 samples.

Results

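Acetylcholine is made, stored, recovered and destroyed by the products of 4 genes, Chat, Slc18a3, Slc5a7 and Ache, and these were followed through 24 RNA-seq libraries of sorted cortical neurons. The 4 genes were chosen by name for their role, to ask whether the VIP sort holds the whole cholinergic machinery. They are 4 of the 36528 genes listed in each library, and all 4 passed the filter on low counts, which left 14890 genes for testing. Chat, Slc18a3 and Slc5a7 passed it only through the VIP libraries, as their reads elsewhere were too few. The libraries come from the cortex of adult mice and were labelled VIP, SST, PV or EXC, 6 for each subtype. Males gave 2 of the VIP, 4 of the SST, 3 of the PV and 4 of the EXC libraries, and females the other 4, 2, 3 and 2. All groups share the preparation: papain dissociation, then a fluorescence sort of cells that excluded DAPI and carried GFP or tdTomato from a reporter line. The sources used here do not name the driver lines behind the reporters, an age beyond adult or the number of animals in a library. Every p-value below therefore measures the spread between these libraries, which may be technical.

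Chat encodes choline acetyltransferase, which joins choline to the acetyl group of acetyl-CoA. Slc18a3 encodes the vesicular acetylcholine transporter, which loads the product into synaptic vesicles. Slc5a7 encodes the high-affinity choline transporter of the presynaptic membrane, which takes up the choline freed when Ache, acetylcholinesterase, splits acetylcholine in the synaptic cleft. In rodent cortex a part of the VIP interneurons is known to contain choline acetyltransferase, besides the fibres that arrive from the basal forebrain.

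Chat (NCBI Gene 12647) lies on the minus strand of chromosome 14 at 32408203 to 32465909 in GRCm38, per RefSeq. Slc18a3 (20508) lies inside it on the same strand, at 32462437 to 32464850, and is a single exon of 2414 bases. It starts 1059 bases and ends 3472 bases after the Chat start, and 4 of the 8 GENCODE M21 transcripts of Chat span it within an intron. The models of Chat and Slc18a3 share 0 exon bases. Slc5a7 (63993) lies on chromosome 17 at 54273590 to 54299038 on the minus strand, and Ache (11423) on chromosome 5 at 137288247 to 137294466 on the plus strand. Since Chat and Slc18a3 lie on the same strand, reads of unspliced Chat RNA from that intron would be counted for Slc18a3 whether or not the counting used strand, and these counts cannot tell them apart. On the opposite strand, Gm2990 overlaps Chat without sharing exon bases, and Gm42456 shares 98 bases with Ache exons. The sources used here do not say whether the counting used strand, so reads from such partners cannot be told apart from those of Chat and Ache.

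**Figure D1:**
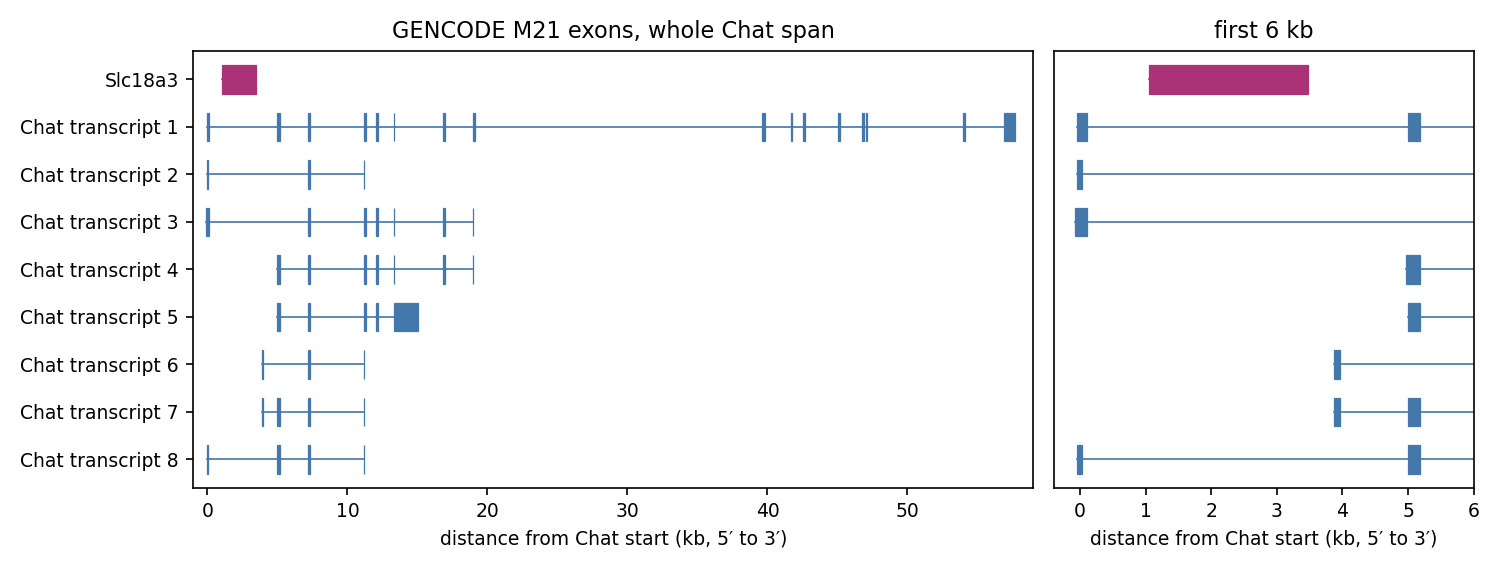
Exons (boxes) and spans (lines) of Slc18a3 and of the 8 GENCODE transcripts of Chat, drawn by distance from the Chat start in kb along the direction of transcription; the left panel covers the whole of Chat and the right panel its first 6 kb. Slc18a3 sits in an intron of 4 Chat transcripts and overlaps no Chat exon.

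The 250 bases before the start of each gene in the RefSeq promoter table (GRCm38.p6) are shown because Chat, Slc18a3 and Slc5a7 were high together in VIP while Ache was also high in SST; all 4 genes matched an entry. For Slc5a7 and Ache that start lies inside the span given above, so the last 4 and 7 bases of their windows belong to the span. Capitals mark 2 motifs on either strand, the CRE half-site TGACG (reverse complement CGTCA) and the GC box GGGCGG (reverse complement CCGCCC). The windows are chr14:32465910-32466159 (minus strand) for Chat, chr14:32464851-32465100 (minus) for Slc18a3, chr17:54299035-54299284 (minus) for Slc5a7 and chr5:137288004-137288253 (plus) for Ache.
Chat: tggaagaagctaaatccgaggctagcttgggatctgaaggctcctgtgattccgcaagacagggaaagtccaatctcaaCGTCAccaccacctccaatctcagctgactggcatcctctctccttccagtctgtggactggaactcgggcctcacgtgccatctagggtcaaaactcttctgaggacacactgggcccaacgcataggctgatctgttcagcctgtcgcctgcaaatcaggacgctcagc
Slc18a3: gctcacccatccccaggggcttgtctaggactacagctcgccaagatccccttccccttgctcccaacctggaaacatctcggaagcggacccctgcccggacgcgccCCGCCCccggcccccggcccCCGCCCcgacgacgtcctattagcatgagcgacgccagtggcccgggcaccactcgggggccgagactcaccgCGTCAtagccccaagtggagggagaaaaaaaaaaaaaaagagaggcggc
Slc5a7: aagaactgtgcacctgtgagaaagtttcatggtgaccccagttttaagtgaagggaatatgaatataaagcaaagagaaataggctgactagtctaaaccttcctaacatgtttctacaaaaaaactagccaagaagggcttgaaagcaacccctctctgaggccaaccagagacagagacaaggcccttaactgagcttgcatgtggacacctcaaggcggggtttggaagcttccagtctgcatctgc
Ache: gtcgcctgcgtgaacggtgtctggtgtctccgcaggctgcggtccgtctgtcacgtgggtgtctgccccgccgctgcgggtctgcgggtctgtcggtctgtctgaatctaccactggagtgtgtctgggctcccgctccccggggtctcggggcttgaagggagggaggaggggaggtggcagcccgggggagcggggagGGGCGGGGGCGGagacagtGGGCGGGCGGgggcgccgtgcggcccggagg

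The CRE half-site occurred once each before Chat, 171 bases from that start, and before Slc18a3, 49 bases from it; 17.7% of 32817 mouse promoter windows of this length hold it. The GC box occurred at 142 and 122 bases before Slc18a3 and at 50, 44, 31 and 27 bases before Ache, where the last pair overlap each other; 32.7% of windows hold it. The core TAATTA, bound by LIM-homeodomain factors, was in none of the 4 windows and in 4.85% of all. The E-box CANNTG, not capitalised, occurred 2 times before Chat, 1 time before Slc18a3, 3 times before Slc5a7 and 1 time before Ache, with 66.2% of windows holding it. The share of G and C was 54.8% for Chat, 66.0% for Slc18a3, 45.6% for Slc5a7 and 73.6% for Ache, against a median of 52.4% and a middle range of 45.2% to 61.2% over all windows. These matches describe letters and say nothing of binding.

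Total reads per library ran from 1548907 to 15978459, with a median of 6012251.5, and the 6 VIP libraries summed to 36366615 reads, against 70731925 for SST, 40858120 for EXC and 17173654 for PV. Sequencing pool follows subtype closely: all 6 PV and 5 EXC libraries lie in POOL6188, 5 SST and 2 VIP libraries in POOL7098, 4 VIP libraries and EXC replicate 3 in POOL7099, and SST replicate 5 alone in POOL7100. EXC replicate 3 and SST replicate 5 thus stand apart from their groups by pool. The gene Vip itself averaged 1727 ± 51.4 normalised CPM (SD, n = 6) in the VIP libraries and at most 5.29 in any other library. Of a list of 15 genes of the VIP class, 14 were tested and 13 were higher in VIP than in the mean of the other subtypes, against 24.2% of all genes tested. Some of the 13, such as Rspo4 (0 reads outside VIP) and Rspo1 (at most 1.19 CPM there), passed the filter only through VIP. For these, higher in VIP was the only call possible, so the count is not read as a test.

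Chat, the synthetic enzyme, was found in every VIP library and in nearly no other. The 6 VIP libraries held 596 Chat reads, between 62 and 132 each, and their normalised CPM (reads scaled to library size, with TMM factors) had a lowest value of 11.0, a median of 14.8 and a highest value of 23.5, a mean of 15.5 ± 4.58 (SD, n = 6). The 6 PV libraries held 0 reads, which allows a level of up to 0.213 CPM over the group. SST held 1 read, in replicate 5, and EXC held 5 reads, all in replicate 3. All 6 VIP libraries lay above all 18 others, and the lowest of them was 10.4 times the highest of the rest, which was EXC replicate 3 at 1.06 CPM.

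Over the summed normalised reads, Chat was 130 times as high in VIP as in EXC, with an exact 95% counting interval of 55.3 to 401. It was at least 70.8-fold higher than in PV, against a floor of 3 counts over the group. Against the single SST read the ratio was 1184, with a counting interval of 212 to 46849. Without EXC replicate 3 the remaining EXC libraries held no Chat read, and the ratio to VIP was at least 192-fold. In edgeR's quasi-likelihood test Chat was higher in VIP than in the mean of EXC, PV and SST (adjusted p = 9.3e-11). In that comparison 44.3% of all genes tested were called and 24.2% were called higher. Since Chat passed the filter only through VIP, higher in VIP was the only call possible, and the counts above carry the result. The fitted fold of a gene with so few reads elsewhere depends on the prior count and is not used as a size. In this sorted bulk RNA, fewer expressing cells and less RNA per cell cannot be told apart, so the level in VIP is an average over the whole sort.

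Slc18a3, the vesicular loader, had the same pattern. VIP held 616 reads, between 36 and 129 per library, and levels with a lowest value of 6.99, a median of 16.2 and a highest value of 21.7 normalised CPM (mean 15.8 ± 5.60, SD, n = 6). EXC and PV held 0 reads, which allows up to 0.0698 and 0.213 CPM over the group, and SST held 1 read, in replicate 4. All 6 VIP libraries lay above all 18 others. By summed normalised reads Slc18a3 was at least 223-fold higher in VIP than in EXC and at least 73.1-fold higher than in PV, and its ratio to SST was 1224 with a counting interval of 219 to 48419. The edgeR test against the mean of the other subtypes gave an adjusted p of 5.86e-11. As with Chat, the filter left higher in VIP as the only call possible.

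Slc5a7, the choline transporter, was also far higher in VIP than elsewhere, but was not near 0 in SST. The VIP libraries held 5533 reads, with a lowest level of 89.7, a median of 142 and a highest level of 197 normalised CPM (mean 139 ± 36.0, SD, n = 6). SST held 161 reads spread over all 6 libraries, with 0.533, 1.81 and 4.15 CPM as the lowest, median and highest level (2.03 ± 1.30). PV held 5 reads in 3 libraries, with a highest level of 1.26 CPM, and EXC held 2 reads in 2 libraries. The order VIP, SST, PV, EXC had VIP libraries above all others, and SST above all EXC libraries but overlapping PV.

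Slc5a7 was 68.3 times as high in VIP as in SST by summed normalised reads, with a counting interval of 58.4 to 80.4, and the edgeR log2 fold change was 6.04 ± 0.37 (SE, adjusted p = 1.54e-12; 31.3% of genes were called in that comparison, 16.7% higher). Its ratio to PV was 394 (169 to 1215) and to EXC 3011 (833 to 24869). Against the mean of the 3 other subtypes the adjusted p was 8.56e-18, for a gene that passed the filter only through VIP. Outside VIP, Slc5a7 was 44.1 times as high in SST as in EXC (12.01 to 367; adjusted p = 2.3e-06, with 38.4% of genes called and 17.1% higher) and 5.77 times as high as in PV (2.42 to 18.0; adjusted p = 0.00753, with 26.3% called and 14.9% higher). SST shares no pool with EXC or PV, so pool and subtype cannot be told apart there. With pool as a covariate neither of these SST comparisons passed the test, and the log2 fold change against PV turned to -0.63.

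The Slc5a7 reads in SST can be set beside those of other VIP genes there. SST held 101 Vip reads, and at the ratio of Slc5a7 to Vip in the VIP libraries these would come with 8.21 Slc5a7 reads, against 161 counted, if the profile of the VIP libraries were fixed. At the VIP ratio of Chat to Slc5a7 the 161 reads would come with 17.3 Chat reads, against 1 counted. Other VIP genes gave another picture. SST held 604 Tac2 and 854 Crh reads, against 17615 and 8516 in VIP. Relative to their VIP reads, both stood higher in SST than Slc5a7, while Vip stood lower. The number of Slc5a7 reads set beside the 161 thus depends on the gene taken. The part of VIP cell RNA in the SST level was not tested. Other genes also stood high in SST. The summed level of 9 striatal projection neuron genes ran from 358 to 1178 normalised CPM in SST, against 122 to 190 in VIP, 105 to 142 in PV and 221 to 284 in EXC. None of the 9 was at 0 in any subtype, and 8 of 9 were lower in VIP than in SST, a direction called for 14.6% of all genes.

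The summed level of 10 genes of forebrain cholinergic neurons outside the cortex ran from 15.7 to 69.0 CPM in SST, 3.50 to 6.16 in VIP, 1.85 to 12.2 in PV and 1.06 to 23.5 in EXC. Lhx8 and Isl1, transcription factors of those neurons, were read in all 6 SST libraries, at up to 2.52 and 3.71 CPM, while Lhx8 was at 0 in VIP. Gbx2, another transcription factor of the list, was at 0 in SST and VIP. The part of striatal or basal forebrain RNA in the SST level of Slc5a7 was not tested.

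Ache, the degrading enzyme, was read in every library, at overlapping levels in VIP and SST. Its levels in SST had a lowest value of 31.2, a median of 33.2 and a highest value of 39.1 normalised CPM (34.6 ± 3.29, SD, n = 6, 2708 reads). In VIP they were 18.3, 30.0 and 55.4 (31.4 ± 14.0, 1203 reads), in PV 5.98, 12.1 and 22.6 (13.0 ± 5.48, 199 reads) and in EXC 2.52, 5.32 and 7.82 (5.13 ± 1.74, 223 reads). All SST libraries lay above all PV and EXC libraries and all VIP libraries above all EXC libraries, while VIP overlapped both SST and PV. The SST libraries differed least, with a coefficient of variation of 9.52%, against 44.7% in VIP.

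In edgeR, Ache was higher in VIP than in the mean of the other subtypes by a log2 fold change of 1.20 ± 0.22 (SE, adjusted p = 0.000105). It was higher than in EXC by a log2 fold change of 2.57 ± 0.30 (SE, adjusted p = 1.01e-07; 39.1% of genes called, 18.4% higher) and than in PV by 1.21 ± 0.29 (adjusted p = 0.00137; 48.6% called, 26.7% higher), the latter not past the test with pool as a covariate (1.81, adjusted p = 0.0574). VIP and SST were not told apart, with -0.18 ± 0.28 (adjusted p = 0.668), or -0.93 (adjusted p = 0.054) with pool as a covariate. SST exceeded EXC by 2.74 ± 0.29 (adjusted p = 3.12e-08) and PV by 1.39 ± 0.29 (adjusted p = 0.000632), which became 4.07 and 2.74 with pool as a covariate. SST shares no pool with EXC or PV, so pool and subtype cannot be told apart in these 2 comparisons. The values with the covariate are linked only through the VIP libraries and EXC replicate 3, and are not read as a larger difference. PV exceeded EXC by 1.36 ± 0.30 (adjusted p = 0.000629; 45.9% called, 20.3% higher). PV and EXC share POOL6188, and within it the Ache difference was 1.32 ± 0.36 (adjusted p = 0.00574; 46.8% called, 22.1% higher).

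**Figure D2:**
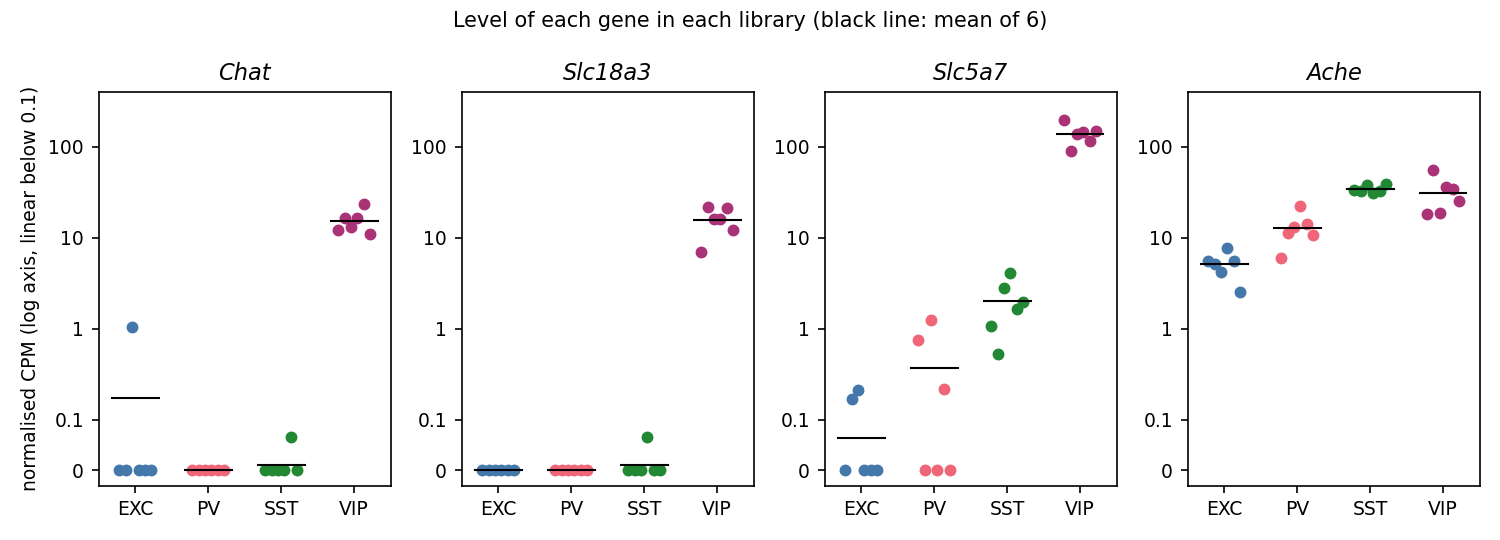
Normalised CPM of each gene in each of the 24 libraries (1 point per library, black line at the mean of 6), by subtype, on a log axis that is linear below 0.1. VIP libraries lie above all others for Chat, Slc18a3 and Slc5a7, whereas for Ache the VIP points overlap those of SST and PV.

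Only POOL7098 held more than 1 library of both VIP and another subtype. In it, with 2 VIP and 5 SST libraries, Chat (adjusted p = 1.69e-06), Slc18a3 (3.06e-07) and Slc5a7 (1.27e-07) were higher in VIP, in a comparison with 41.4% of genes called and 20.8% higher. Chat and Slc18a3 were nearly unread in SST and again passed the filter only through VIP. Ache was lower in VIP there, by a log2 fold change of -1.01 ± 0.21 (adjusted p = 0.00167; 20.7% called lower), unlike in the fit of all libraries. The 2 VIP libraries of this pool held 18.4 ± 0.190 CPM of Ache and the 4 of POOL7099 held 37.9 ± 12.6, with no overlap. In POOL7099 the only EXC library, replicate 3, held 1.06 CPM of Chat, 0 of Slc18a3, 0.212 of Slc5a7 and 4.23 of Ache, each below all 4 VIP libraries of the pool. The spread of EXC is not measured by 1 library, so no p-value is drawn from this set, in which a fit that takes it to vary like the VIP libraries called 21.9% of genes, 10.3% higher.

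With pool as a covariate over all 24 libraries, Slc5a7 and Ache stayed past the test in VIP against the mean, and Chat and Slc18a3 did not, at adjusted p = 1 each. That mean includes PV. Against SST alone, Chat and Slc18a3 kept their calls in the edgeR fit with pool (adjusted p = 1.27e-06 and 2.52e-07). They also kept them against EXC, where only EXC replicate 3 shares a pool with VIP. The fitted log2 fold change of Slc18a3 was 9.38 in that fit and 9.52 without the covariate, and that of Chat 5.97 and 8.73. With so few reads outside VIP these values depend on the prior count and are not used as sizes. VIP and PV share no pool, so that comparison cannot be told apart from pool, and none of the 4 members kept its call there (adjusted p = 1 for Chat and Slc18a3, 0.289 for Slc5a7 and 0.0574 for Ache).

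Levels of different genes were compared per length, by the deposited RPKM (reads scaled by gene length and library size, and adjusted by size factors). In VIP the order was Slc5a7 at 15.7 ± 4.60 (SD, n = 6), Ache at 5.06 ± 2.20, Slc18a3 at 3.94 ± 1.33 and Chat at 3.32 ± 0.911. The RPKM of Slc5a7 exceeded that of Chat in 6 of 6 libraries, by 2.54 to 8.50 times with a median of 5.04. Slc18a3 exceeded Chat in 5 of 6 libraries, with a ratio of 0.676 to 1.54, so by RPKM these neighbours in the order did not differ beyond their spread. Per kilobase of union exons they stood at 6.55 ± 2.32 and 3.29 ± 0.974 CPM (SD), so their gap depends on the length used. Ache exceeded Chat in 6 of 6 libraries, by 1.06 to 2.53 times. The RPKM values imply a Chat length of 2810 bases where Slc18a3 has its 2414, which equals the exon bases of a reference Chat transcript, so the Slc18a3 exon is not in the length used for Chat. In SST, Ache stood at 5.33 ± 0.476 and Slc5a7 at 0.219 ± 0.142 RPKM.

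**Figure D3:**
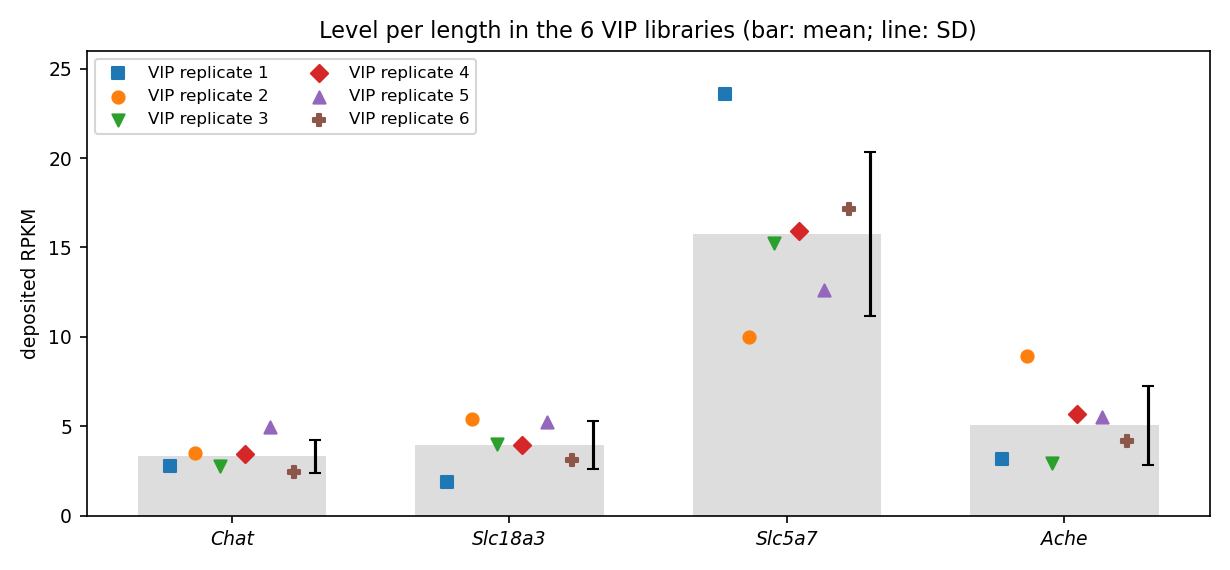
Deposited RPKM of the 4 genes in the 6 VIP libraries, with 1 symbol per library, bars at the mean and a line for 1 SD on each side. Slc5a7 has the highest value of the 4 genes in every VIP library.

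Among the 6 VIP libraries the genes did not all vary in the same direction. Replicate 1 had the lowest Slc18a3 (6.99 CPM) and the highest Slc5a7 (197), and replicate 2 had the highest Slc18a3 (21.7) and the lowest Slc5a7 (89.7). Over 6 libraries Pearson's r between Slc18a3 and Slc5a7 was -0.960 and Spearman's rho -1, each with an exact two-sided permutation p of 0.00278, the smallest such a rho can give, and 0.0167 after adjustment over the 6 gene pairs. Without the 2 libraries farthest from the median of Slc18a3 r was -0.935. Chat and Slc18a3 had r = 0.749 (exact permutation p = 0.0667, adjusted 0.1) and rho = 0.657 (p = 0.175, adjusted 0.21), and no other pair passed the adjusted threshold. The pools hold 2 and 4 of these libraries, too few for values within a pool, and their part in these relations was not tested. Between the pools the VIP libraries did not overlap for Ache and did for Chat, Slc18a3 and Slc5a7. The share of all genes without such overlap was not counted, so this is not read as a trait of Ache.

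**Figure D4:**
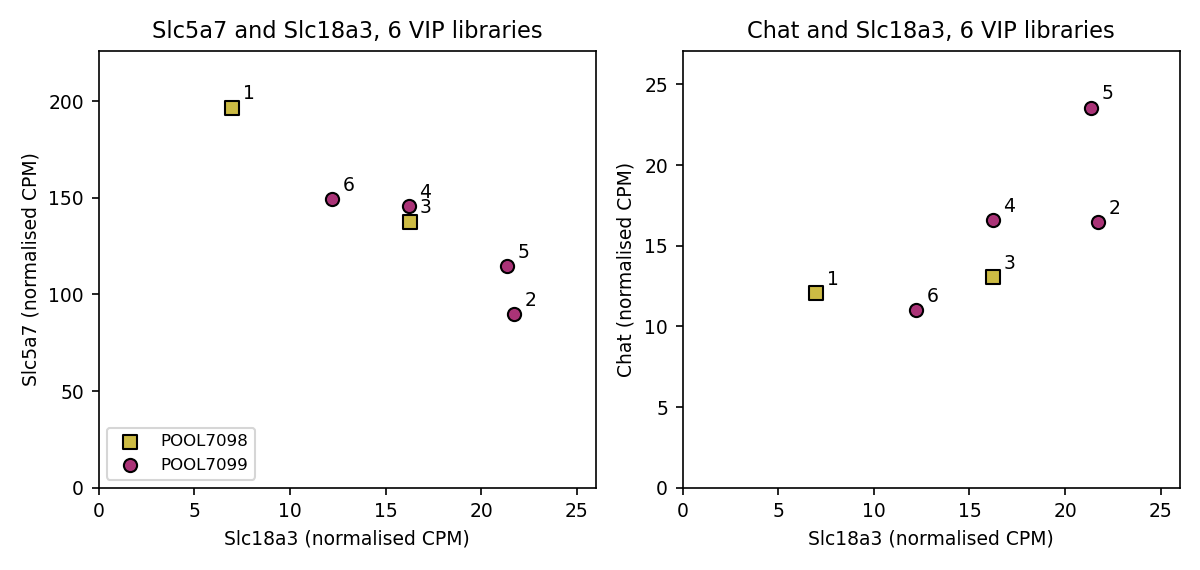
Slc5a7 (left) and Chat (right) against Slc18a3 in normalised CPM in the 6 VIP libraries, numbered by replicate, with squares for POOL7098 and circles for POOL7099. Slc5a7 falls from 197 to 89.7 CPM as Slc18a3 goes from 6.99 to 21.7, while Chat tends upward.

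Sex made no detectable difference to the 4 genes. None was called between female and male libraries (adjusted p = 1 for each in edgeR), where 0.0403% of all genes were called, nor between female and male VIP libraries, where 0.0336% were called. The smallest unadjusted p of a member was 0.284, and DESeq2 called neither Slc5a7 nor Ache over all libraries and none of the 4 within VIP. Within VIP the female minus male log2 fold change was -0.32 ± 0.78 (SE) for Chat, 0.23 ± 0.63 for Slc18a3, -0.25 ± 0.42 for Slc5a7 and 0.35 ± 0.43 for Ache. With 4 female and 2 male VIP libraries, these errors leave room for differences of that size in either direction.

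Other genes that handle choline changed less than Chat, Slc18a3 and Slc5a7. Of 10 further choline transporters, 4 passed the filter and 2 were higher in VIP than in the mean of the other subtypes, with a median log2 fold change of 0.96 over the 4 against 0.03 over all genes. Slc44a5, a choline transporter-like protein, was higher by 1.68 ± 0.18 (adjusted p = 2.93e-08), with 135 ± 38.2 CPM in VIP and 121 ± 34.6 in EXC but 29.4 ± 4.23 in SST and 20.1 ± 6.997 in PV. Flvcr1, which carries haem and choline, was higher by 1.55 ± 0.24 (adjusted p = 7.7e-06), and Slc44a1, the broadly expressed choline transporter, stood at -0.10 ± 0.18. Of 9 genes that put choline into phosphatidylcholine, 8 were tested, 3 were higher and 2 lower, and without EXC replicate 3 and SST replicate 5 these were 4 and 2. Beside the counts of both lists, 24.2% of all genes tested were called higher and 20.1% lower in this comparison. Chpt1, a cholinephosphotransferase, was higher by 1.80 ± 0.38 and Chka, a choline kinase, by 1.23 ± 0.25, while Pcyt1b, an enzyme that makes CDP-choline, was lower by -1.25 ± 0.21.

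Of 9 genes of acetyl-CoA supply, all 9 were tested, 2 were higher and 2 lower in VIP, with a median log2 fold change of -0.15. The acetyl-CoA synthetases Acss1 (1.12 ± 0.37) and Acss2 (0.52 ± 0.18) were higher, and the pyruvate dehydrogenase subunits Dlat (-0.73 ± 0.13) and Pdhb (-0.48 ± 0.14) were lower. Acly, which makes cytosolic acetyl-CoA from citrate, stood at -0.08 ± 0.14. Shares called higher and lower over all genes in this comparison were 24.2% and 20.1%.

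Among the cholinesterase partners, Bche was higher and Prima1 lower in VIP than in SST, by a log2 fold change of 1.61 ± 0.47 (adjusted p = 0.00986) and -4.76 ± 0.88 (adjusted p = 0.00017). Bche, butyrylcholinesterase, was higher in VIP than in the mean of the others by 2.34 ± 0.38 (adjusted p = 1.86e-05), at 12.5 ± 2.69 CPM in VIP, 5.82 ± 4.60 in EXC, 4.36 ± 1.69 in SST and 0.573 ± 0.826 in PV. Prima1, the membrane anchor of acetylcholinesterase in brain, was lower by -3.09 ± 0.83 (adjusted p = 0.00391). It stood at 7.03 ± 2.21 CPM in SST and at 0.176 ± 0.273 in VIP, where 4 of 6 libraries held no read. Colq, the collagen-tailed anchor, was not tested and was at 0 in SST and VIP.

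**Figure D5:**
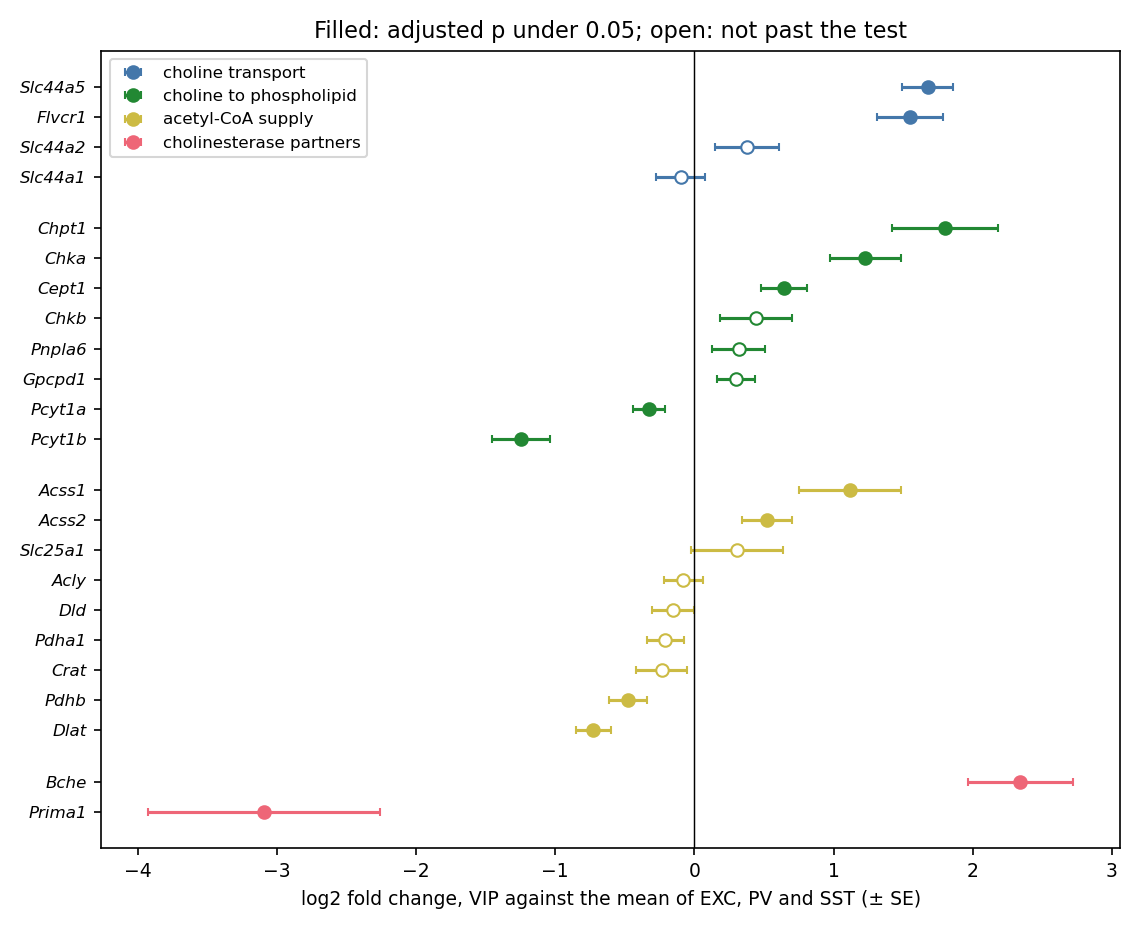
Log2 fold change of VIP against the mean of EXC, PV and SST, with 1 SE on each side, for the tested genes of choline transport, choline use in phospholipid, acetyl-CoA supply and cholinesterase partners. Filled points passed the edgeR test and open points did not; Bche is the highest at 2.34 and Prima1 the lowest at -3.09.

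Few genes of other cholinergic neurons passed the filter. Beside each count against the mean given here, 24.2% of all genes tested were called higher and 20.1% lower. Of the 10 forebrain genes 4 were tested, with Ecel1, an endopeptidase-like protein, higher by 1.50 ± 0.44 and Zic1, a zinc finger transcription factor, lower by -2.80 ± 0.79 against the mean. Against SST 0 of the 4 were higher and 3 were lower, as were 14.6% of all genes, and Ecel1 stood at 2.57 ± 1.25 CPM in VIP and 5.87 ± 0.860 in SST (log2 fold change -1.26 ± 0.50, adjusted p = 0.0564). Of 7 genes of habenular, brainstem and motor cholinergic neurons 1 was tested, Chrna3, a nicotinic receptor subunit, which was higher by 4.12 ± 0.50 (adjusted p = 2e-07) at 9.36 ± 1.27 CPM in VIP. Chrna3 averaged at most 1.05 CPM in the other subtypes. It passed the filter only through VIP, so higher in VIP was the only call possible. Mnx1, a transcription factor of motor neurons, was at 0 in VIP. Of 10 genes that load or recover other transmitters 5 were tested, 2 were higher and 2 lower, and without EXC replicate 3 and SST replicate 5 these were 3 and 2. The vesicular GABA transporter Slc32a1 averaged 141 ± 43.1 CPM in VIP, so the VIP libraries held the loaders of both GABA and acetylcholine, and the vesicular glutamate transporter Slc17a8 was at 0 there. Of 5 genes of monoamine synthesis 2 were tested and neither was called against the mean, with 0 at an unadjusted p under 0.05 in edgeR. By pairs of subtypes, 1 of the 2 was higher in VIP than in EXC, 1 higher than in PV and 1 lower than in SST. Over all genes these shares were 18.4%, 26.7% and 14.6%. The one lower than in SST was Th, at 0.676 ± 0.797 CPM in VIP and 8.78 ± 2.84 in SST. Of markers of other brain cells, 3 of 10 tested astrocyte genes were higher and 1 lower in VIP than in the mean of the others, and 1 of 6 tested mural genes was lower. Of 3 oligodendrocyte precursor genes only Pdgfra was tested, and it was higher by 4.33 ± 0.45, while Cspg4 stood at 0.388 CPM in VIP and 2.08 in EXC. Pdgfra too passed the filter only through VIP, with 16.2 CPM there and at most 0.928 on average in the other subtypes. In edgeR none was called of 7 oligodendrocyte, 8 microglial, 4 endothelial and 2 red blood cell genes tested, with 0, 1, 0 and 1 of them at an unadjusted p under 0.05, and 1 red blood cell gene was higher without EXC replicate 3 and SST replicate 5. Against EXC alone, 5 of 7 oligodendrocyte, 5 of 10 astrocyte, 3 of 8 microglial, 2 of 6 mural and 1 of 4 endothelial genes were lower in VIP, where 20.7% of all genes were lower. The part of such RNA in the differences of the 4 members between VIP and EXC was not tested. Of the 9 striatal genes 1 was higher and 5 lower against the mean, or 6 without those libraries.

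Genes whose log2 CPM ran most like each member over the 24 libraries were listed by Pearson's r, as a description in which each subtype contributes 6 related points. For Chat these were Rspo4 (0.980), Vip (0.974), Cbln2 (0.972), Egfr (0.968) and Rag1 (0.963), and for Slc18a3 Rspo4 (0.998), Rag1 (0.978), Cbln2 (0.971), Egfr (0.970) and Vip (0.970). Rspo4, a secreted enhancer of Wnt signalling, stood at 4.48 ± 1.67 CPM in VIP and at 0 in all other libraries. For Slc5a7 they were Grpr (0.961), Cnr1 (0.959), Sp8 (0.959), Tac2 (0.954) and Hdac9 (0.954). For Ache they were Impact (0.925), Klhl13 (0.923), Macroh2a2 (0.917), Zim3 (0.915) and Rims3 (0.910). Chat and Slc18a3 had the same genes listed, while the lists of Slc5a7 and Ache shared none with any other member.

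The genes next to the members were tested in the same fits. Ercc6, a DNA repair gene 47382 bases from Chat, was higher in VIP by 0.74 (log2, adjusted p = 0.00139) but was read at 41.4 to 81.7 CPM on average in every subtype. On the other side of Chat, 1700024G13Rik was read in PV only, with 16 reads. St6gal2, a sialyltransferase beyond Slc5a7, stood at 0.09 (adjusted p = 0.659), and Sult1c1, a sulfotransferase on its other side, held 1 read in all. Ufsp1, a protease gene 203 bases from Ache, stood at 0.37 (adjusted p = 0.399). It averaged 3.84 ± 1.65 CPM in VIP, 5.04 ± 0.609 in SST, 4.73 ± 1.76 in PV and 0.896 ± 0.587 in EXC, and was higher in VIP than in EXC by 1.95 ± 0.45 (adjusted p = 0.00105), as Ache was. Muc3a, a mucin gene on the other side, stood at 0.74 (adjusted p = 0.208).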

How the data were processed

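Sorted cortical neurons were profiled by RNA-seq in 24 libraries, 6 per subtype, numbered within a subtype by order of deposition. The reads were aligned to GRCm38 with GSNAP, per the submitters' processing notes. The deposited counts are uniquely aligned reads per gene model, and the deposited RPKM values are adjusted by size factors, both per the file headers; the sources used here do not name the counting program, strand setting or annotation. Of 36528 listed genes, 31049 were matched in RefSeq and 74 more through GENCODE M21.

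Counts were filtered with filterByExpr by subtype, scaled by TMM and fitted in edgeR 4.0.16 (R 4.3.3) with terms for subtype and sex over all 24 libraries. Quasi-likelihood F tests were adjusted by Benjamini-Hochberg over 14890 genes, and an adjusted p under 0.05 was called. A standard error is the size of the log2 fold change divided by the square root of F. Fits within a pool used that pool's libraries alone. RPKM served only for levels per length, without a test. Ratios near 0 reads use an exact binomial interval at 95% or a floor of 3 counts over the group. Levels at 0 reads use the upper end of an exact Poisson interval at 95%. All of these cover counting error only. Over 60 pairs of libraries within a subtype, chi-square was at least 5.58 per degree of freedom, so none was taken for a copy.

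The members, gene lists, tests and alternatives were chosen with earlier results of these data known. Named are the 4 members, up to 4 called genes and up to 1 not called per list by size of change (a part is printed, and some are not reported here), the 5 genes most like each member by log2 CPM with a prior count of 2, and the nearest gene on each side. Lists of other brain cells served as checks. Alternatives were DESeq2 1.42.0, other scaling factors, no filter, a filter of 5 CPM in 6 libraries, no sex term, robust estimation, pool as a covariate, leaving out libraries, and level per kilobase of union exons. The statistics were tested on simulated data.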

Additional observations from a re-analysis of the deposited data

Results flagged for a closer look

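Chat was checked, like the other members, for a library far from the rest of its group, and chance sets 1 library apart in about 1 in 20 groups; 13 groups with any spread were checked. In EXC, replicate 3 stood apart with 1.06 normalised CPM of Chat, from 5 reads, while the other EXC libraries held none. That library also held 25 Vip reads (5.29 CPM), which at the ratio in the VIP libraries would come with 0.219 Chat reads, and it is the only EXC library in POOL7099; their part in the Chat reads was not tested. In SST, replicate 5 stood apart for Chat at 0.0665 CPM and replicate 4 for Slc18a3 at 0.0669 CPM, each from 1 read. In these 3 groups all reads lie in 1 library and the others are at 0, so any read would have set a library apart and the rate of 1 in 20 does not apply to them.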

How the results depend on the processing

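Slc5a7 and Ache kept their calls in VIP against the mean of the other subtypes under every alternative run. Chat and Slc18a3 lost theirs in this comparison only with pool as a covariate. That setting gave Chat 5.97 and Slc18a3 9.38 (log2, adjusted p = 1 each) and 2264 genes called in place of 6598, with 3714 for VIP against EXC (5821) and 2341 for VIP against PV (7242). Under it Slc5a7 in SST against PV turned to -0.63 (adjusted p = 0.801), and Slc5a7 in SST against EXC fell to 2.41 (adjusted p = 0.232); the cause was not tested. Without 1 library each, Ache in VIP against the mean ran from 1.02 to 1.37, and Chat in VIP against EXC from 6.75 to 9.96. Within POOL7098 the genes called ran from 3170 (without VIP replicate 1) to 6826, and within POOL7099 from 2125 (without VIP replicate 4) to 5786 (without VIP replicate 6). Per kilobase of union exons Slc18a3 stood at 6.55, Chat at 3.29 and Slc5a7 at 24.6 CPM in VIP. The order of the 4 genes was as by RPKM, with Slc18a3 farther above Chat. No paired analysis was possible because replicate numbers follow the order of deposition only. Depth limits PV most, where 0 reads still allow 0.213 CPM.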
